A study of Drosophila melanogaster with 27 samples.

Results

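The innexins are the gap junction proteins of insects, and the mRNAs of all 8 members of the family in D. melanogaster were followed here through the larval ovary. The members were taken by gene symbol: ogre, Inx2, Inx3, zpg, Inx5, Inx6, Inx7 and shakB. All 8 were found among the 16257 genes of the count tables.

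Innexins cross the plasma membrane and assemble into channels that join the cytoplasm of neighbouring cells and let ions and small molecules pass. In the fly ovary, zpg (zero population growth) is the innexin of the germ line and is needed for germ cells to survive and differentiate, and Inx2 is known as its partner in the somatic cells that enclose them. Inx3 can form mixed channels with Inx2 in epithelia, ogre is best known from glia and the developing optic lobe, and shakB builds electrical synapses.

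The libraries covered whole ovaries of the Oregon R strain, somatic cells sorted from bab:Gal4>GFP ovaries and germ cells sorted from nos:GAl4>GFP ovaries. Each was taken at 72 h (early), 96 h (mid) and 120 h (late) after egg laying (AEL), the last of these at white pupa formation, in 3 replicates, 27 libraries in all. By the study's methods, sorted cells came from UAS:Green Stinger females crossed to males of either driver. The bab:GAL4 insertion lies in bab1 and was kept over the TM6B balancer, the nos:GAL4 line also carried UAS-Dcr-2, and every library pooled ovaries or sorted cells of many animals. Tissue and driver parent therefore cannot be told apart in the comparison of sorted cells, and the somatic libraries hold only cells in which bab:GAL4 was active.

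Totals ran from 9680615 to 72875881 expected counts a library. A count of 0 allows up to 3 counts, or between 0.0412 and 0.310 CPM, the unit used here for counts relative to the scaled library size. Such limits cover counting error only. The 7 germ cell markers summed to between 2307 and 5290 CPM in germ cell libraries and to between 13.2 and 46.9 CPM in somatic ones, with at most 1 of the 7 at 0 in a library. The 4 somatic gonad markers (bab1, bab2, tj and zfh1) summed to between 1068 and 1960 CPM in somatic libraries. In germ cell libraries they summed to between 84.1 and 1504 CPM, with none at 0. Germ cell mid replicate 1 stood apart from the other germ cell libraries, with the highest sum of these markers and 3334 CPM of 9 fat body markers, against between 16.3 and 60.9 CPM in the other 8. That library also had the lowest total, 9680615 expected counts. The study reported that the mid germ cell replicates did not cluster together, and named its low number of reads as a possible explanation. This was not tested here. Marker mRNAs of tissue around the ovary changed with stage, and a change in the amount of such tissue cannot be told apart from one in mRNA per cell. In whole ovaries the fat body markers summed to between 18183 and 24680 CPM at early and between 33176 and 79164 CPM at mid. At late they summed to between 5630 and 10259 CPM. From early to late, 4 of the 9 were called higher and 3 lower, and 4 of 6 muscle markers were called lower. Of all genes tested there, 21.9% were called (844 higher and 1358 lower). In somatic libraries 6 haemocyte markers summed to between 11.0 and 68.4 CPM at early, between 295 and 846 CPM at mid and between 1720 and 2194 CPM at late, with between 2 and 5 of the 6 at 0 in a library. In early replicates 1 and 2 and mid replicates 2 and 3, with 5 of the 6 at 0, a single gene made up the sum. From early to late, 2 of the 6 were tested in somatic cells and only Pxn was called higher (23.0% of all genes called). In whole ovaries 0 of the 6 were called higher and 2 lower over the same interval (21.9% of all genes called).

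Of the 8 genes, 6 lie on the X chromosome (coordinates of the BDGP6 assembly, release 6). A cluster of 3 of them spans 30532 bases: ogre (FBgn0004646, chrX:6973620-6991318, minus strand), Inx7 (FBgn0027106, chrX:6991612-6993612, minus strand) and Inx2 (FBgn0027108, chrX:6998672-7004151, plus strand). Only 293 bases separate ogre from Inx7, and 5059 bases separate Inx7 from Inx2. The antisense lncRNA:CR44084 shares 403 exon bases with ogre, and since the strand setting of the counting was not given in the sources used here, its reads cannot be told apart from those of ogre. Inx5 (FBgn0030989, chrX:19168777-19170883), Inx6 (FBgn0027107, chrX:20267821-20269769) and shakB (FBgn0085387, chrX:20761071-20927050) lie elsewhere on the X, all on the minus strand. The germline member zpg (FBgn0024177, chr3L:6604366-6606032, minus strand) and Inx3 (FBgn0265274, chr3R:28853606-28859497, minus strand) are autosomal. The longest annotated coding sequences give proteins of between 362 residues, for ogre, and 532 residues, for shakB. Exons cover between 1539 bases in zpg and 18308 bases in shakB, so members are set side by side only per kilobase of exon below.

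The family was made up of different members in the sorted tissues. In somatic libraries, Inx2 took between 46.7% and 58.7% of the summed innexin CPM per kilobase, Inx3 between 29.8% and 43.1%, ogre between 7.17% and 10.6% and zpg at most 0.588%. In germ cell libraries, zpg was the highest member in 7 of 9, with its share running from 11.6% in mid replicate 1 to 94.0% in early replicate 1. The remaining pair were mid replicate 1, led by Inx2 with 58.8%, and late replicate 4, in which Inx3 (33.1%) and zpg (32.8%) were nearly equal. In whole ovaries, Inx2 (31.6% to 45.0%) and Inx3 (24.9% to 43.2%) had similar shares, ogre had between 8.96% and 13.3% and zpg between 12.2% and 20.9%. The order of Inx2 and Inx3 in whole ovaries depends on the length used: Inx2 exceeded Inx3 in 4 of 9 libraries per kilobase of all exons but in 9 of 9 per kilobase of the mean annotated transcript. The same change of length leaves zpg in front in 4 of 9 germ cell libraries and Inx2 in the other 5. In somatic libraries Inx2 was first in 9 of 9 by either length.

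**Figure D1:**
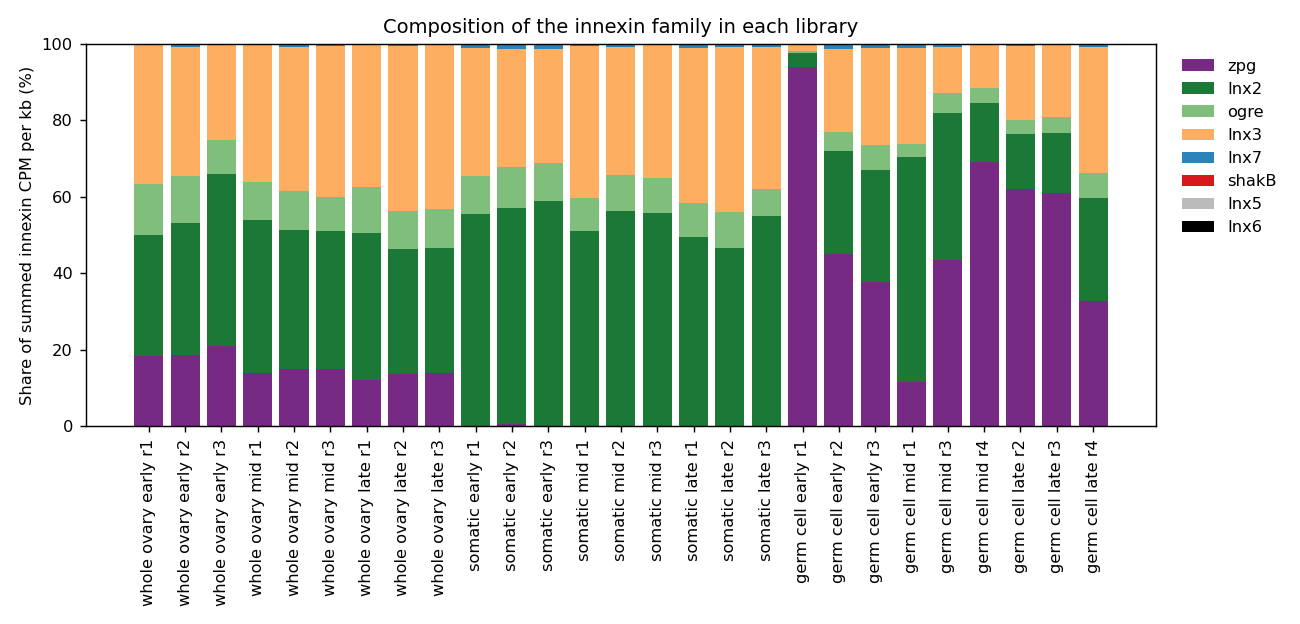
Share of each innexin in the summed innexin CPM per kilobase of exon (y axis, %), 1 bar per library (x axis; r, replicate). Somatic bars are filled by Inx2, Inx3 and ogre with zpg at most 0.588%, whereas zpg takes 94.0% of germ cell early replicate 1 and 11.6% of germ cell mid replicate 1.

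zpg set the sorted tissues apart by the widest margin of the called innexins. In germ cells its level was 390, 231 and 210 CPM in early replicates 1, 2 and 3, 101, 251 and 290 CPM in mid replicates 1, 3 and 4, and 343, 283 and 231 CPM in late replicates 2, 3 and 4. In somatic cells it was 0.526, 5.99 and 1.11 CPM at early, 0.0151, 1.75 and 0 CPM at mid, and 0.122, 0 and 0 CPM at late (replicates 1, 2 and 3). All 9 germ cell libraries lay above all 9 somatic ones, the lowest of them being mid replicate 1.

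Genes were called at a Benjamini-Hochberg adjusted p under 0.01, adjusted over all genes tested, from the quasi-likelihood F test of edgeR. By this test zpg was higher in germ cells over all stages by 9.29 ± 0.79 (SE) on the log2 scale (adjusted p = 3.16e-07). It was the only innexin called at each single stage, with log2 fold changes of 6.75 ± 1.14 at early (adjusted p = 0.00113), 8.57 ± 1.26 at mid (adjusted p = 3.38e-04) and 12.56 ± 1.66 at late (adjusted p = 1.64e-04). Of all genes tested, 4.79% were called at early, 7.47% at mid and 7.84% at late. The early call was lost without somatic early replicate 1 (adjusted p = 0.0116) or replicate 3 (adjusted p = 0.0160). At late the somatic libraries held 2 zpg counts in all against 40631 in germ cells, and the fitted value depends on the prior count there. Relative to the pooled, unscaled library totals the ratio was 9314, with a 95% counting interval from 2578 to 76910. At early the counts were 33358 against 362 (ratio 114.7, interval 103 to 128), and at mid 14552 against 51 (ratio 636, interval 484 to 855). These counting intervals leave out the spread between libraries. Somatic replicate 2 held 303 of the 362 early counts and 50 of the 51 mid counts. The 95% intervals of the fitted log2 fold changes were from 4.34 to 9.16 at early, 5.89 to 11.2 at mid and 9.04 to 16.1 at late.

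The zpg counts of somatic libraries were small beside those of germ cells, as were those of the germ cell markers. As a percentage of the germ cell mean of the same stage, zpg reached 2.16% in somatic early replicate 2 and at most 0.819% in the other 8 libraries. The germ line helicase gene vas reached 1.57% in the same library and between 0.0779% and 0.636% in the others. The median over the 7 germ cell markers ran from 0.316% to 1.57%. Single markers did not all move with zpg: AGO3 stood at 1.39% and 1.52% in somatic late replicates 1 and 3, where zpg stood at 0.0428% and 0%, tej at 1.84% in mid replicate 3, where zpg was at 0%, and bgcn at 2.64% in early replicate 1, where zpg was at 0.190%. The part of stray germ cell RNA in these counts was not tested.

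Whole ovaries showed zpg at 90.0, 83.4 and 112 CPM at early, 73.2, 61.5 and 71.9 CPM at mid and 66.4, 77.5 and 78.2 CPM at late. All 3 early libraries lay above all later ones. The difference did not pass the test, with log2 fold changes of -0.47 ± 0.15 from early to mid (adjusted p = 0.109) and -0.36 ± 0.15 from early to late (adjusted p = 0.0816). vas, by comparison, fell by 0.84 on the log2 scale from early to late (adjusted p = 8.55e-04), and 3 of the 7 germ cell markers, vas among them, were called lower, where 21.9% of all genes were called (844 higher and 1358 lower). The ratio of zpg to vas CPM averaged 0.316 ± 0.0246 (SD, n = 3) at early, then 0.318 ± 0.0275 at mid and 0.443 ± 0.0678 at late, and the early and late values did not overlap (exact permutation test, two-sided, p = 0.1, the smallest that 3 against 3 libraries allow). However, vas had the largest fall of the markers called, and the median log2 fold change over the 7 was -0.65. AGO3 was at 129, 139 and 296 CPM at early and 199, 183 and 156 CPM at late. Ratios of zpg to other markers were not tested, so these values describe zpg against vas only. Fat body and muscle markers also moved with stage in these libraries, as given above, and their part in the whole ovary values of zpg was not tested. In bulk samples, fewer cells of a type and less RNA per cell cannot be told apart.

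Within sorted germ cells, zpg did not pass the test at any transition. Its log2 fold change from early to late was 0.04, with a 95% interval from -0.82 to 0.91, so that a change of up to 0.82 downwards or 0.91 upwards lies within the error. The ratio of zpg to vas was between 0.240 and 0.293 in early libraries, between 0.0983 and 0.179 in mid libraries and between 0.267 and 0.330 in late ones. The mid values thus lay below all others, with mid replicate 1 the lowest.

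**Figure D2:**
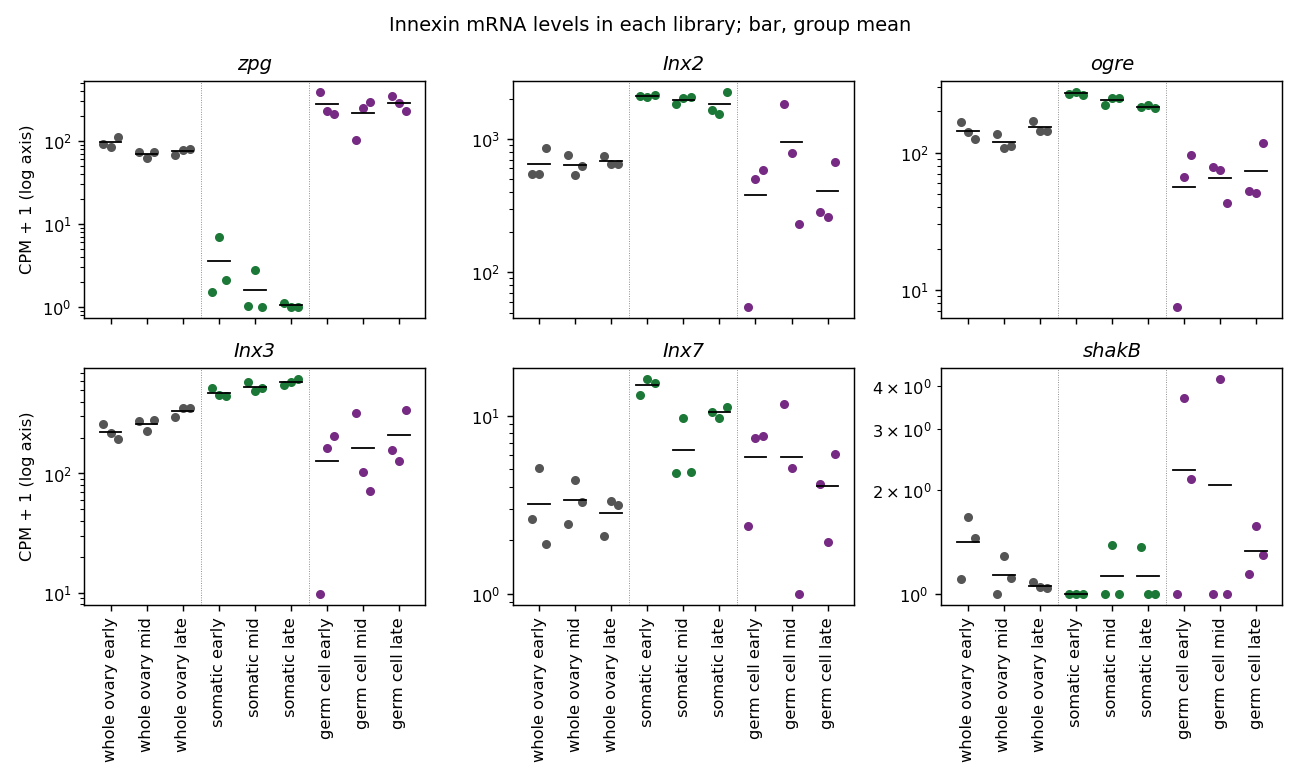
Level of 6 innexins in each library, as CPM + 1 on a log axis, by tissue and stage; points are libraries and bars are group means. Germ cell libraries lie between 101 and 390 CPM for zpg, where somatic libraries reach 5.99 CPM at most, and spread more widely than somatic libraries for Inx2, ogre and Inx3.

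The somatic members ogre, Inx2 and Inx3 were lower in germ cell than in somatic libraries over all stages. With zpg, 4 of the 6 innexins tested were called in that comparison, against 25.3% of the 11243 genes tested. The median log2 fold change was -1.40 over the 6 innexins and 0.02 over all genes tested. Inx5 and Inx6 did not pass the filter on low counts.

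Inx2, the most abundant innexin mRNA of the somatic cells, was at 2098, 2053 and 2133 CPM in somatic libraries at early, 1813, 2012 and 2062 CPM at mid and 1641, 1545 and 2250 CPM at late. In germ cells it was at 54.1, 497 and 582 CPM at early, 1831, 787 and 228 CPM at mid and 285, 258 and 675 CPM at late. Germ cell mid replicate 1 overlapped the somatic libraries, and the other 8 germ cell libraries lay below all of them. The difference was -1.89 ± 0.40 on the log2 scale over all stages (adjusted p = 0.00160), a 3.71-fold lower level. It did not reach the threshold at early (-2.47, adjusted p = 0.0317), mid (-1.05, adjusted p = 0.285) or late (-2.16, adjusted p = 0.0447), whereas DESeq2 called it at early (adjusted p = 0.00141) and late (adjusted p = 0.00638). Without germ cell early replicate 1, edgeR called it at late (adjusted p = 0.00970).

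ogre was lower in every germ cell library than in any somatic one. Its somatic levels were 268, 277 and 263 CPM at early, 222, 249 and 249 CPM at mid and 214, 221 and 211 CPM at late. Its germ cell levels were 6.51, 65.3 and 94.5 CPM at early, 77.0, 74.3 and 41.7 CPM at mid and 51.9, 50.2 and 117 CPM at late. The log2 fold change over all stages was -1.91 ± 0.34 (adjusted p = 3.79e-04), a 3.77-fold lower level. At single stages edgeR did not call it (adjusted p = 0.0197, 0.0354 and 0.0747), whereas DESeq2 did at early (adjusted p = 5.91e-04) and mid (adjusted p = 0.00973). Without germ cell early replicate 1, edgeR called it at all 3 stages (adjusted p = 0.00529, 4.32e-04 and 0.00182).

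Inx3 likewise had no overlap between the sorted tissues. Somatic libraries held 516, 458 and 442 CPM at early, 579, 490 and 523 CPM at mid and 551, 583 and 621 CPM at late. Germ cell libraries held 8.82, 162 and 206 CPM at early, 319, 102 and 70.6 CPM at mid and 155, 127 and 339 CPM at late. The log2 fold change over all stages was -1.70 ± 0.42 (adjusted p = 0.00459), but this call was lost on leaving out any of 10 of the 18 libraries: somatic early 1, 2 or 3, mid 1 or late 1, 2 or 3, or germ cell mid 4, late 2 or late 3 (adjusted p between 0.0101 and 0.0149). It was also lost without the mid libraries of both tissues (adjusted p = 0.0264).

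**Figure D3:**
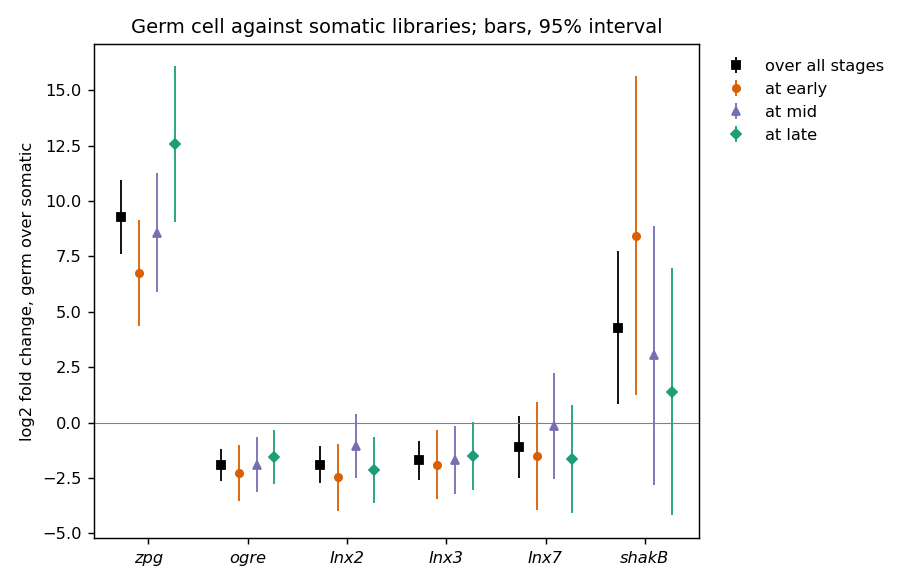
Log2 fold change of germ cell over somatic libraries (y axis) for the 6 innexins tested, over all stages and at each stage; bars are 95% intervals. zpg lies far above 0 in all 4 comparisons, ogre, Inx2 and Inx3 lie below 0 with the whole interval over all stages, and shakB has intervals of many log2 units.

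How much of the somatic innexin mRNA appeared in a germ cell library varied between libraries, and the somatic gonad markers varied as well. Germ cell early replicate 1 had 2.58% of the mean early somatic level of Inx2, 2.42% of that of ogre and 1.87% of that of Inx3. The same library had 1.33% of the somatic level of tj, a transcription factor of the somatic gonad, and 4.14% of that of bab2, a terminal filament gene. In early replicates 2 and 3, Inx2 stood at 23.7% and 27.8%, beside tj at 24.6% and 38.1% and bab2 at 32.0% and 50.4%. At mid, Inx2 stood at 93.3%, 40.1% and 11.6% in replicates 1, 3 and 4, beside tj at 42.5%, 18.6% and 19.9% and bab2 at 107%, 58.6% and 18.4%. At late, Inx2 stood at 15.7%, 14.3% and 37.3% in replicates 2, 3 and 4, beside tj at 25.4%, 37.1% and 81.8% and bab2 at 26.1%, 22.5% and 58.3%.

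The markers did not all follow the innexins. Early replicate 1, the lowest library for Inx2, ogre and Inx3, was also the lowest for tj, bab2 and bab1, but bab1 still stood at 41.1% there and zfh1 at 17.0%, and the lowest library for zfh1 was mid replicate 4 (12.4%). Mid replicate 1, the highest for Inx2 and Inx3, was the highest for bab2 (107%) and zfh1 (101%), whereas tj (81.8%) and bab1 (147%) were highest in late replicate 4. The median of the 4 somatic gonad markers ran from 10.5% to 102% over the 9 libraries. None of the 4 markers was at 0 in any germ cell library, and the part of somatic RNA in the innexin counts of these libraries was not tested.

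**Figure D4:**
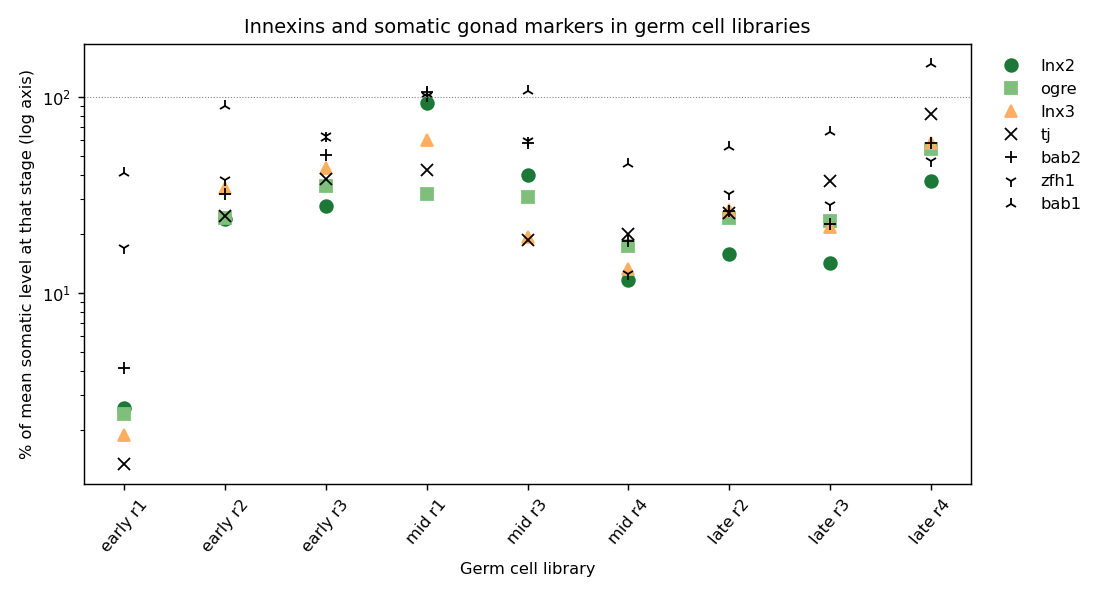
Level in each germ cell library as a percentage of the mean somatic level at the same stage (y axis, log), for Inx2, ogre and Inx3 (coloured) and the 4 somatic gonad markers (black); r, replicate. Early replicate 1 is lowest for the 3 innexins, at 1.87% to 2.58%, and mid replicate 1 has Inx2 at 93.3%.

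Between stages no innexin passed the test in any of the tissues. In whole ovaries, 0 of 5 innexins tested were called from early to mid, when 0.994% of all genes were called, from mid to late (14.8% of all genes) and from early to late (21.9%). The counts over all genes depend on single libraries: with 1 left out, they ran from 0 to 211 at the first step (100 with all), from 695 to 2939 at the next (1491 with all) and from 1233 to 3280 from early to late (2202 with all), and 0 innexins were called in each case. At an unadjusted p under 0.05 the innexin counts were 1, 2 and 2, and DESeq2 called 0, 0 and 1. In somatic cells 0 of 5 were called, against 1.90% of all genes from early to mid, 6.56% from mid to late and 23.0% from early to late, with 1, 1 and 3 at an unadjusted p under 0.05 and 1, 0 and 1 by DESeq2. In germ cells 0 of 6 were called, but edgeR called 0 of all 10340 genes tested there as well (0% in each of the 3 comparisons), with 1940, 1203 and 678 genes at an unadjusted p under 0.05 and 549, 244 and 143 called by DESeq2. Without germ cell mid replicate 4, edgeR called 485 genes from early to mid. None of the innexins had an unadjusted p under 0.05 in germ cells, DESeq2 called none of them, and none was called with any 1 library left out. The germ cell comparisons could not have shown small changes, since the 95% interval of the early to late change of Inx2 ran from -1.80 to 2.06.

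The difference between germ and somatic cells in a change between stages was called for 0 of 6 innexins both from early to mid (0.0356% of all genes called) and from mid to late (0.276%), with 0 innexins at an unadjusted p under 0.05. DESeq2 called shakB from early to mid, a gene without counts in most somatic libraries. A difference of Inx2 between the tissues in the change from early to mid was estimated at 1.42, with a 95% interval from -0.61 to 3.45.

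Inx3 had the largest estimated change of the abundant members from early to late. In whole ovaries it was at 257, 218 and 194 CPM at early, 276, 226 and 277 CPM at mid and 294, 354 and 350 CPM at late. All 3 late libraries lay above all earlier ones. The log2 fold change from early to late was 0.58 ± 0.15, or 1.49-fold, just short of the threshold (adjusted p = 0.0170), and it passed by DESeq2 (adjusted p = 6.75e-04) and without TMM scaling (adjusted p = 0.00631), which shifted the median of all genes by 0.19 in the same comparison. In somatic cells its change was 0.32 ± 0.13 (adjusted p = 0.0674), and the late libraries again lay above the early ones. At late the summed fat body markers of whole ovaries were lowest. The haemocyte sum of somatic libraries, a list of which only Pxn was called there, was highest at late. The part of these markers in the changes of Inx3, ogre and Inx2 was not tested.

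ogre and Inx2 had fold changes of the other sign in somatic cells. The 3 late somatic libraries lay below the 3 early ones for ogre, with a log2 fold change of -0.31 ± 0.12 (adjusted p = 0.0530, and 0.00666 by DESeq2). For Inx2 the change was -0.20 ± 0.15 with a 95% interval from -0.53 to 0.14, and late replicate 3, at 2250 CPM, was the highest of all somatic libraries. In whole ovaries the early to late changes were 0.09 for ogre (interval from -0.25 to 0.43) and 0.07 for Inx2 (interval from -0.41 to 0.55).

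The ratio of Inx3 to Inx2 CPM, which needs no scaling between libraries, stood at 0.225 ± 0.0194 (SD, n = 3) in early, 0.272 ± 0.0412 in mid and 0.330 ± 0.0511 in late somatic libraries. Early and late values did not overlap (exact permutation test, two-sided, p = 0.1, the smallest possible). In germ cell libraries the ratio had means of 0.281 ± 0.103 at early, of 0.205 ± 0.0934 at mid and of 0.513 ± 0.0275 at late, again without overlap between early and late (exact p = 0.1). In whole ovaries it was 0.366 ± 0.126 at early and 0.492 ± 0.0819 at late, and these overlapped (exact p = 0.3). The ratio of ogre to Inx2 in somatic libraries was 0.129 ± 0.00577 at early and 0.122 ± 0.0256 at late (exact p = 0.9). In germ cell libraries it was 0.138 ± 0.0218 at early and 0.183 ± 0.0106 at late, without overlap (exact p = 0.1). These were among 8 ratios compared between early and late, and none can pass a correction over 8 tests with 3 libraries in a group.

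**Figure D5:**
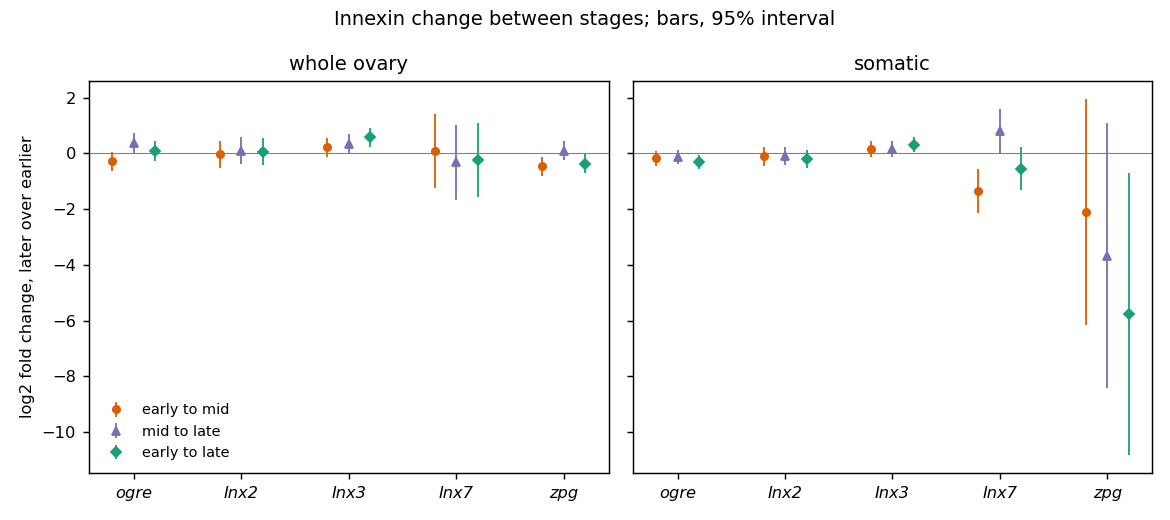
Log2 fold change between stages (y axis, later over earlier) of the 5 innexins tested in whole ovaries and in somatic cells; bars are 95% intervals. Inx3 is at 0.58 in whole ovaries and 0.32 in somatic cells from early to late, and the intervals of zpg in somatic cells, where a library held at most 303 of its counts, are wide.

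Inx7, which is known from neurons of the mushroom body circuit, was a minor member. Its somatic levels were 12.1, 15.1 and 14.3 CPM at early, 3.75, 8.76 and 3.81 CPM at mid and 9.48, 8.66 and 10.2 CPM at late. All 3 mid and all 3 late libraries lay below the early ones. The change from early to mid was -1.35 ± 0.36 (adjusted p = 0.0425, and 0.00626 by DESeq2). Whole ovaries held between 0.905 and 4.08 CPM, and germ cells between 0 CPM, in mid replicate 4, and 10.6 CPM, in mid replicate 1. The difference between germ and somatic cells over all stages was -1.10 ± 0.66 (adjusted p = 0.202).

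shakB had few or no counts in most libraries. It was listed at 0 counts in 11 of 27 libraries, and its highest values were 176 counts (2.69 CPM) in germ cell early replicate 2, 84 counts (3.19 CPM) in mid replicate 3 and 42 counts (1.15 CPM) in early replicate 3. The germ cell replicates disagreed, since early replicate 1 and mid replicates 1 and 4 had 0 counts. Somatic libraries had at most 11 counts and whole ovaries at most 14. The log2 fold change of germ over somatic cells over all stages was 4.29 ± 1.62 and missed the threshold (adjusted p = 0.0473), whereas DESeq2 called it. The estimate fell to 1.56 without germ cell mid replicate 3 and rose to 6.02 without somatic late replicate 1. The 5 neuron markers summed to between 17.9 and 96.3 CPM in germ cell libraries and to between 19.3 and 46.7 CPM in somatic ones, and the part of neuronal RNA in the shakB counts was not tested.

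Inx5 and Inx6 were not detected in most libraries. Inx5 had 0 counts in 18 of 27 libraries and its highest count was 33, in somatic mid replicate 1. Inx6, like Inx7 known from the mushroom body circuit, had 0 counts in 25 of 27 libraries and 8 and 7 counts in germ cell late replicates 2 and 4. Neither passed the filter on low counts of the edgeR test. DESeq2, run without that filter, did not call them in germ cells from early to late (adjusted p = 0.936 for Inx5 and 0.853 for Inx6). At these depths a level under the limits given above would not have been seen.

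Over the 18 sorted libraries, the genes with levels most like those of zpg, by Pearson correlation of log2(CPM + 1) among 11242 other genes, were yl (0.995), which encodes the yolk protein receptor, vas (0.993), Kots (0.993), Pxt (0.992) and otu (0.991), a gene of germ cell differentiation. Those most like Inx2 were ci (0.985), the transcription factor of the Hedgehog pathway, vig (0.982), Tollo (0.979), Tes (0.979) and Fas2 (0.972), a cell adhesion molecule. Between members, the correlation was 0.96 for ogre and Inx3, 0.95 for ogre and Inx2, 0.93 for Inx2 and Inx3 and -0.80 for Inx2 and zpg. These values describe 18 libraries that fall into 2 tissues, and they carry no test.

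Genes of other junctions were called between stages, and their counts are given beside the share of all genes called. Among 22 septate junction genes, which seal epithelia, 8 rose and 2 fell in whole ovaries from early to late (21.9% of all genes called), led by Fas3 (log2 fold change 2.0, adjusted p = 6.48e-05) and vari (-1.40, adjusted p = 5.06e-04). In somatic cells, 9 rose and 3 fell over the same interval (23.0% of all genes called), led by Fas3 (2.04, adjusted p = 1.94e-06) and Gli (-0.98, adjusted p = 0.00211). Of 8 adherens junction genes, 3 rose in whole ovaries and 5 in somatic cells from early to late, none fell, and ed, an adhesion molecule, changed most in both (2.53, adjusted p = 3.68e-05, and 2.71, adjusted p = 1.08e-04). From mid to late, ed also led the adherens junction genes. In whole ovaries 1 of the 8 rose (ed 3.10, adjusted p = 1.83e-05), where 14.8% of all genes were called. In somatic cells 2 rose (ed 2.74, adjusted p = 5.83e-04), where 6.56% of all genes were called. Whether these lists differ from the innexins or from all genes in their share of calls was not tested.

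Of 9 genes of store-operated and receptor-linked calcium signalling, 1 rose (RyR, 2.14, adjusted p = 0.00186) and 1 fell (SERCA, -0.67, adjusted p = 0.00869) in whole ovaries from early to late. In somatic cells 5 of the 9 rose over the same interval, led by norpA (1.33, adjusted p = 5.26e-04). There 23.0% of all genes were called (1164 higher and 1120 lower). The whole ovary share of this list, 2 of 9, is near that of all genes (21.9%). From early to mid no gene of the 3 lists was called in whole ovaries, where 0.994% of all genes were. In somatic cells (1.90% of all genes called) Fas3 (1.29, adjusted p = 5.57e-04) and p120ctn (0.86, adjusted p = 0.00391) rose and 2 septate junction genes fell, led by vari (-1.32, adjusted p = 0.00338). From mid to late, 7 septate junction genes rose in whole ovaries (14.8% of all genes called), led by bark (4.19, adjusted p = 0.00846), and 2 fell, led by vari (-1.12, adjusted p = 0.00239). Over the same step 6 rose in somatic cells (6.56% of all genes called), led by sinu (1.59, adjusted p = 8.50e-04). The germ cell transitions, in which edgeR called 0 of all genes, say nothing about these lists. In germ against somatic cells over all stages (25.3% of all genes called), 1 septate junction gene was higher (Mcr, 1.93, adjusted p = 7.15e-08) and 9 were lower (vari, -2.33, adjusted p = 7.40e-08), and 4 adherens junction genes (pyd, -1.55, adjusted p = 4.17e-04) and 1 calcium gene (Itpr, -0.79, adjusted p = 0.00108) were lower. At single stages Mcr was the 1 septate junction gene higher in germ cells each time (log2 fold change 2.03, 2.38 and 1.38 at early, mid and late), and 2, 2 and 6 septate junction genes were lower, led by vari (-2.15, -2.70 and -2.13). Of the adherens junction genes, 2 were lower at early, led by cno (-1.05, adjusted p = 0.00587), 0 at mid and 1 at late (ed, -1.68, adjusted p = 0.00433). Of the calcium genes, 0 were called at early and mid and 2 were lower at late, led by Itpr (-1.58, adjusted p = 0.00130). The shares of all genes called were 4.79%, 7.47% and 7.84%, as given for zpg.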

How the data were processed

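The authors deposited expected counts per gene, not normalized, made per the labels and the study's methods with STAR 2.7.6a and RSEM 1.3.3 against the FlyBase release 6 genome from poly(A)-selected single-end reads. RSEM divides reads that map to several genes. Columns were matched to samples by name, and stages and tissues were taken from the labels. Expected counts were rounded and fitted in R 4.3.3 with edgeR 4.0.16, beside limma 3.58.1: filterByExpr (minimum 10 counts, 15 in total), TMM scaling, robust quasi-likelihood test, Benjamini-Hochberg adjustment over all genes tested, calls at an adjusted p under 0.01. Whole ovary, somatic and germ cell libraries (9 each) were fitted separately for stages, and the 18 sorted libraries together for tissues. CPM were scaled separately for the 9 whole ovary and 18 sorted libraries, so their levels stand only side by side. Standard errors and 95% intervals derive from the quasi-likelihood F statistic. The study calls the replicates biological, and each is a pool, so that p-values measure the spread between pools.

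Genes were named through the reference table (16206 of 16257 identifiers matched) and placed with the Ensembl 115 annotation of BDGP6. All 8 innexins are named in every comparison. From the septate junction, adherens junction and calcium lists the counts and the called member with the largest change in each direction are given, and from the correlations the 5 highest genes. p120ctn is named as the only adherens junction gene called in somatic cells from early to mid. The members and lists were chosen with earlier results of these data known. Alternatives were DESeq2 1.42.0, no filter, library totals without TMM, a replicate block and each library left out. limma voom and the omission of mid libraries were added after seeing the data. No pair of libraries was identical.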

Additional observations from a re-analysis of the deposited data

How the results depend on the processing

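Of 348 values of innexin changes under other settings, 333 stayed on their side of the threshold, 4 lost a call, 11 gained one and 0 changed sign while called. With 1 library left out, 1064 of 1080 did, 12 lost a call and 4 gained one. Under the other settings the sign of 8 uncalled values differed from that in the report, as for zpg and Inx7 in germ cells. With 1 library left out, further uncalled values changed sign. The log2 fold change ran from -0.47 to 0.60 for Inx2 and from -0.10 to 0.40 for zpg in germ cells from early to late. It ran from -0.16 to 0.17 for Inx2 in whole ovaries from early to mid, and from -5.17 to 8.19 for shakB in germ against somatic cells at mid. Scaling by library totals moved the median of all genes by between -0.20 and 0.41 on the log2 scale, and changes in the report are relative to TMM.

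DESeq2 called 1 innexin in whole ovaries from early to late (Inx3), 1 in somatic cells from early to mid (Inx7) and 1 from early to late (ogre). It called 4 in germ against somatic cells at early (ogre, Inx2, zpg and shakB), 2 at mid (ogre and zpg), 2 at late (Inx2 and zpg) and 1 for the difference between tissues from early to mid (shakB). Library totals gave 1 call, Inx3, in whole ovaries from early to late. Without the filter the Inx3 call over all stages was lost (adjusted p = 0.0150), and by limma voom the 4 calls over all stages kept their sign. With 1 library left out, the innexins called numbered 0 to 2 at early, 1 to 2 at mid, 1 to 3 at late and 3 to 4 over all stages, and the highest counts at each single stage came without germ cell early replicate 1, when ogre was called at all 3 stages and Inx2 at late. The cause of these differences was not tested.

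Whether replicate numbers pair the samples was not settled: deviations of same-numbered libraries correlated over 0.1 in 2 of 9 pairs in whole ovaries, 2 of 9 in somatic, 0 of 6 in germ cells and 4 of 36 over the sorted libraries, and 3, 5 and 0 of 9 libraries correlated best with their own number. The cut of 0.1 was a choice, and the values to be found without pairing were not computed. With the replicate block, 2 innexins were called over all stages (zpg and ogre), with Inx2 at an adjusted p of 0.0133 and Inx3 at 0.0240. The genes called fell from 100 to 14 in whole ovaries from early to mid, from 881 to 440 in germ against somatic cells at late and from 4 and 31 to 0 for the differences between tissues.

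Over all genes, DESeq2 called 692 against 100 and 2809 against 1491 in whole ovaries over the first and the last step, and 865 against 189 and 1403 against 651 in somatic cells. In germ against somatic cells it called 1783 against 539 at early, 2048 against 840 at mid and 1920 against 881 at late, and for the differences between tissues 418 against 4 and 555 against 31. Library totals gave 155 against 100 in whole ovaries from early to mid. Without the filter there were 296 against 189 in somatic cells from early to mid and 17 against 31 for the difference from mid to late. With 1 library left out, the genes called ran from 66 to 226 (189 with all), 218 to 728 (651) and 1474 to 2330 (2284) in somatic cells over the first step, the last step and both. In germ against somatic cells they ran from 289 to 886 at early, 412 to 1302 at mid and 314 to 1528 at late, each time highest without germ cell mid replicate 4, and from 2201 to 3549 over all stages.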

Other observations

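The gene bou, a septate junction gene, lies within the span of ogre on the opposite strand. Its mean level was 15.0 CPM in early whole ovaries, 18.6 CPM in early and 12.3 CPM in late somatic libraries, and 6.58 CPM in early and 6.46 CPM in late germ cell libraries. It was not called between stages or tissues (log2 fold change of germ over somatic cells over all stages -1.55, adjusted p = 0.126), and its levels were well under those of ogre in every group.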
